A study of Homo sapiens with 12 samples.

Results

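The genes described here encode proteins of the splicing machinery and the proteins that coat nascent mRNA, and they were taken from m1A peak lists by the start of the gene name: SNRP, LSM with a digit, SF3A, SF3B, SRSF or HNRNP. Of 10226 gene names with a peak in any list, 63 met this rule, which used no measured value. They fell into 23 Sm and LSm genes, 9 SF3 genes, 10 SR genes and 21 hnRNP genes. The Sm and LSm group takes every SNRP and LSM name. It therefore also holds genes such as SNRPA and SNRPB2, whose proteins are not Sm or LSm proteins. RefSeq (GRCh38.p14) holds 72 protein-coding names that meet the rule, and 9 of them had no peak under that name: HNRNPA1L3, HNRNPCL1, HNRNPCL2, HNRNPCL3, HNRNPCL4, LSM8, SNRPN, SRSF12 and SRSF8. SF3B14 is the older symbol of SF3B6.

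The study used SNU-668, an established gastric cancer cell line, in a population selected for resistance to erastin, a compound that blocks the cystine antiporter and triggers ferroptosis. The knockdown cells carried an shRNA against ALKBH3 and the control cells a control shRNA (shRNA-NC, genotype label WT), so that all cells shared the erastin resistance. All sample titles also share a prefix that the labels do not explain, so a further shared condition is not known. Each arm had 3 immunoprecipitated libraries, made with an antibody against N1-methyladenosine (m1A) from mRNA broken into pieces of about 300 nt, and 3 input libraries. The authors deposited 1 list of enriched peaks for each of the 6 immunoprecipitated samples, and a list is the unit of replication below. The labels do not say whether the replicates came from separate cultures, so the spread between lists may be technical.

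m1A carries a methyl group on the Watson-Crick face of adenine and a positive charge, and ALKBH3 is an oxidative demethylase that can remove it from RNA. Spliceosomal snRNPs are built on a ring of Sm or LSm proteins, and the SF3A and SF3B complexes of the U2 snRNP clamp the branch point of the intron. SR proteins mostly favour the use of an exon, hnRNP proteins often repress it, and many genes of both families control their own mRNA through alternative exons and long 3′ UTRs.

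A peak is a stretch of exon with more immunoprecipitated than input signal, and its enrichment is the log2 fold change that the authors gave it. The knockdown lists held 34691, 13056 and 8474 distinct peaks, against 5015, 4894 and 15130 in the control lists, so that list lengths overlapped between the groups. No read counts were analysed here, so depth is unknown, and the level of ALKBH3 could not be checked. In bulk RNA, fewer cells with a modified mRNA and less modified mRNA per cell cannot be told apart. A missing peak is not a missing mRNA: of 5 epithelial markers 3 or 4 had a peak in each knockdown list, against 2 to 4 in each control list, and CDH1 had none. Of 9 markers of other cell types, 2 or 3 had a peak in each knockdown list, against 1 or 2 in each control list. CD68 was in all 6 lists, and the liver gene ALB had a peak in knockdown replicates 2 and 3 alone (log2 enrichment of 13.25 and 9.51). PTPRC, CD3E, PECAM1, VWF and COL3A1 had none. The part of these markers in the results was not tested.

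Splicing family genes carried a peak in more lists than most genes. A peak lay on 62, 45 and 40 of the 63 genes in knockdown replicates 1, 2 and 3, against 34, 41 and 53 in control replicates 1, 2 and 3. The means were 49.0 ± 11.5 genes in the knockdown and 42.7 ± 9.61 genes in the control (SD, n = 3 lists each), and the groups overlapped. Without knockdown replicate 1, the longest list, the knockdown mean was 0.17 genes below the control mean (difference of -0.17). Beside this, the share of these genes with a peak exceeded that of the other 10163 genes in 6 of 6 lists, by 12.8 to 36.6 percentage points. In the shortest list, control replicate 2, it was 65.1% of the splicing family genes, against 28.5% of the other genes. These 6 gaps hold for peaks of any strength. With peaks of at least 4-fold enrichment alone, the mean gap over the lists was -6.40 percentage points, and it was below 0 in 4 of 6 lists.

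The hnRNP and SR genes were the most widely marked. Of the 63 genes, 17 (27.0%) had a peak in all 6 lists, against 772 (7.55%) of all 10226 genes. By subfamily these were 9 of 21 hnRNP genes, 4 of 10 SR genes, 3 of 9 SF3 genes and 1 of 23 Sm and LSm genes. The median gene had a peak in 5 lists in the splicing families and in 3 lists among all genes. Without control replicate 1 there were 28 genes with a peak in the other 5 lists (44.4%, against 11.9% of all genes). Without any other list there were 17 to 20, against 7.67% to 12.1% of all genes. The excess rests on weak peaks. With peaks of at least 4-fold enrichment 1 of the 63 genes was in all 6 lists (1.59%, against 1.44% of all genes), and with lists limited to equal length 0 (against 0.831%). Their longest annotated transcripts were shorter than those of all genes, with medians of 2568 nt and 3249 nt. Within the families length and breadth went together: 5 of 12 genes with a transcript of 4000 nt or more were in all 6 lists (41.7%), against 0 of 7 genes under 1000 nt. Among the other genes the same 2 classes stood at 7.66% and 12.6%.

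**Figure D1:**
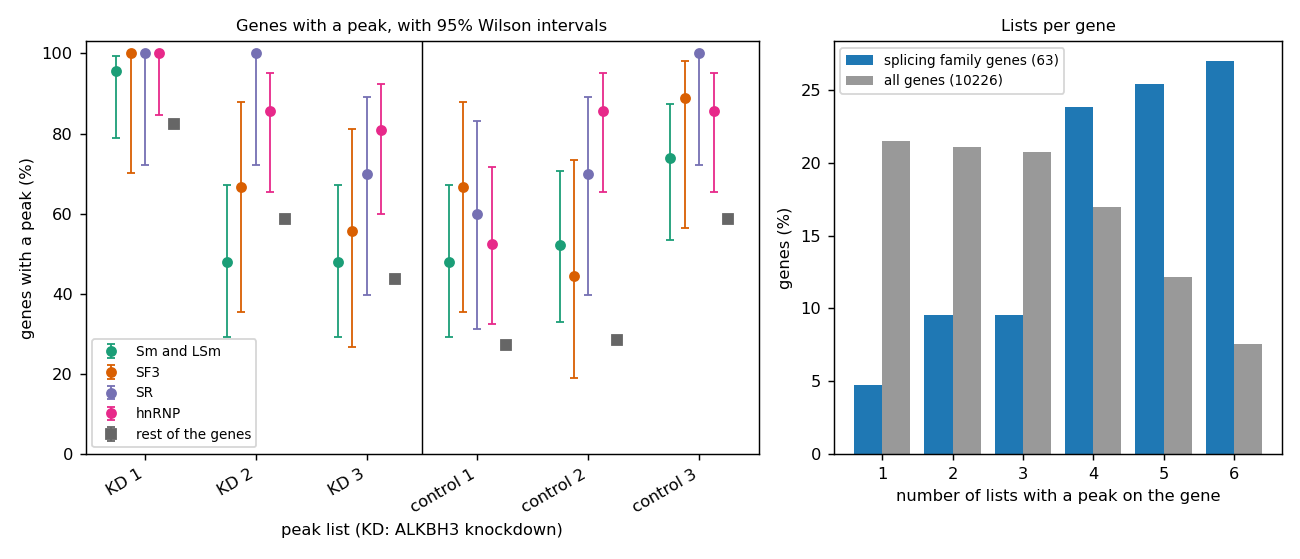
Left, the percentage of genes with a peak (vertical axis) in each of the 3 ALKBH3 knockdown lists and the 3 control lists, by subfamily and for the rest of the genes, with 95% Wilson intervals that cover counting error only. Right, the percentage of genes (vertical axis) by the number of lists with a peak: 27.0% of the 63 splicing family genes and 7.55% of all genes reached 6 lists.

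Peaks on splicing family genes were weakly enriched. Each peak was ranked by enrichment within its own list, from 0 to 100. The median splicing family peak stood at percentile 24.3, 14.1 and 20.3 in the 3 knockdown lists, against 28.1, 19.6 and 17.6 in the 3 control lists. The peaks of all other genes had medians of 50.2 to 50.7, and the splicing family median was lower in 6 of 6 lists, with differences of -36.2 to -22.2 points. In lists limited to their 4894 most enriched peaks the mean difference was -8.28 points, and it ran from -31.1 to 9.50, above 0 in 2 of 6 lists. An enrichment of at least 4-fold was reached by 19.5%, 25.3% and 20% of the splicing family peaks in the knockdown lists, against 14.1%, 28.0% and 12.6% in the control lists. Among the other peaks these shares were 50.4%, 62.8% and 55.2% in the knockdown lists, against 29.2%, 60.7% and 53.8% in the control lists. The families were therefore often listed, and mostly low in the ranking of each list.

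Strong peaks took a larger share of the SR peaks in the knockdown lists. At least 4-fold enrichment was reached by 12 of 42, 12 of 41 and 4 of 17 SR peaks in the knockdown lists, against 1 of 9, 2 of 17 and 4 of 41 in the control lists. This is 27.1 ± 3.13% in the knockdown and 10.9 ± 1.02% in the control (SD, n = 3 lists each), and the groups did not overlap. No p is given, because the families were chosen with results of these data known. The other 3 subfamilies overlapped between the groups. The SF3 share ran from 11.1% to 33.3% in the knockdown and from 11.5% to 77.8% in the control.

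**Figure D2:**
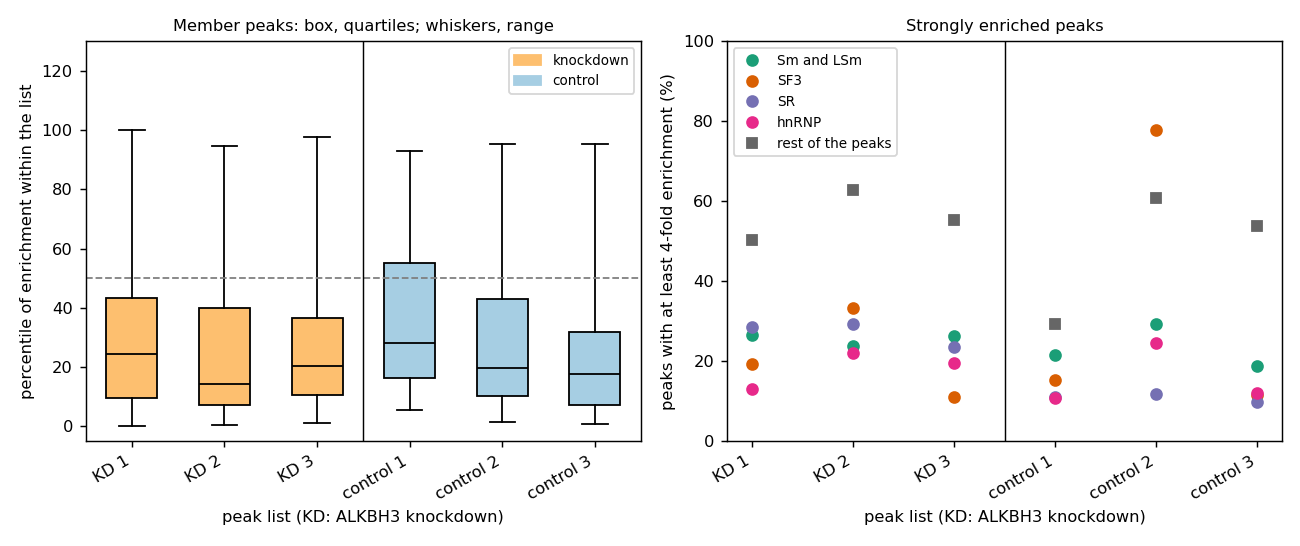
Left, percentile of enrichment within the list (vertical axis) of the splicing family peaks in the 3 knockdown and the 3 control lists, with median, quartiles and range. The dashed line marks the middle of a list, and all 6 medians lie between 14.1 and 28.1. Right, percentage of peaks with at least 4-fold enrichment by subfamily and for the rest: SR peaks lie between 23.5% and 29.3% in the knockdown lists and between 9.76% and 11.8% in the control lists.

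The 3′ UTR took a smaller share of the splicing family peaks in the knockdown lists, as it did on other genes. A peak was assigned to a region where every annotated transcript gave that region alone. Some splicing family peaks had transcripts that differed in region, or ran over both UTRs. They made up 21.1%, 10.5% and 10.0% in the knockdown lists, against 4.69%, 4.00% and 6.32% in the control lists. The 3′ UTR alone held 18.7%, 39.5% and 31.0% of the splicing family peaks in the knockdown lists, against 53.1%, 58.0% and 40.0% in the control lists. The means were 29.7 ± 10.4% in the knockdown and 50.4 ± 9.31% in the control (SD, n = 3 lists each), and the groups did not overlap. By subfamily, they did not overlap for Sm and LSm or for hnRNP peaks, and overlapped for SF3 and for SR peaks. On all other genes the shares were 19.8%, 39.2% and 44.3% in the knockdown lists, against 57.5%, 59.6% and 44.4% in the control lists, so the same order held there. Coding sequence alone held 41.8%, 38.3% and 49.0% in the knockdown lists, against 26.6%, 29.0% and 45.3% in the control lists, and these overlapped. On all other genes coding sequence alone held 55.8%, 45.3% and 39.7% in the knockdown lists. In the control lists it held 26.0%, 25.2% and 37.6% there, without overlap. Both differences of the splicing families changed when weak peaks were left out. When every list was limited to its 4894 most enriched peaks, the 3′ UTR difference changed sign (+9.42 percentage points, against -20.6 with all peaks) and so did the coding difference (-2.02, against +9.43). That cut is uneven, since it keeps all of control replicate 2 but 4894 of the 34691 peaks of knockdown replicate 1. With peaks of at least 4-fold enrichment the coding difference was -4.99 percentage points. The 3′ UTR difference was then -5.26 and kept its sign. The pooled SD between lists of the 3′ UTR share was 19.9 at equal length and 20.7 at 4-fold, so neither value settles a direction.

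Except in knockdown replicate 1, most strongly enriched peaks of these genes lay in 3′ UTRs. Among splicing family peaks of at least 4-fold enrichment, the 3′ UTR alone held 34.7%, 75.6% and 90% in the knockdown lists, against 66.7%, 78.6% and 70.8% in the control lists. Among weaker peaks it held 14.9%, 27.3% and 16.3% in the knockdown lists, against 50.9%, 50% and 35.5% in the control lists. Strong peaks exceeded weak ones in 6 of 6 lists, by 15.8 to 73.8 percentage points. On other genes the same gap was 7.53 to 24.4 points, smaller than on the splicing families in every list. Control replicate 1 had only 9 strong peaks on these genes. There the gap changed sign (-19.8) with a bound of 3-fold, or with the median of the list, in place of 4-fold, and with 3-fold the gap exceeded that of other genes in 2 of 6 lists. Of 46 peaks with at least 8-fold enrichment, on 25 genes, 40 lay in the 3′ UTR alone (87.0%), against 58.1% of such peaks on other genes. Control replicate 1 had no such peak on these genes, and in control replicate 2 the shares were 77.8% here and 77.6% on other genes.

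**Figure D3:**
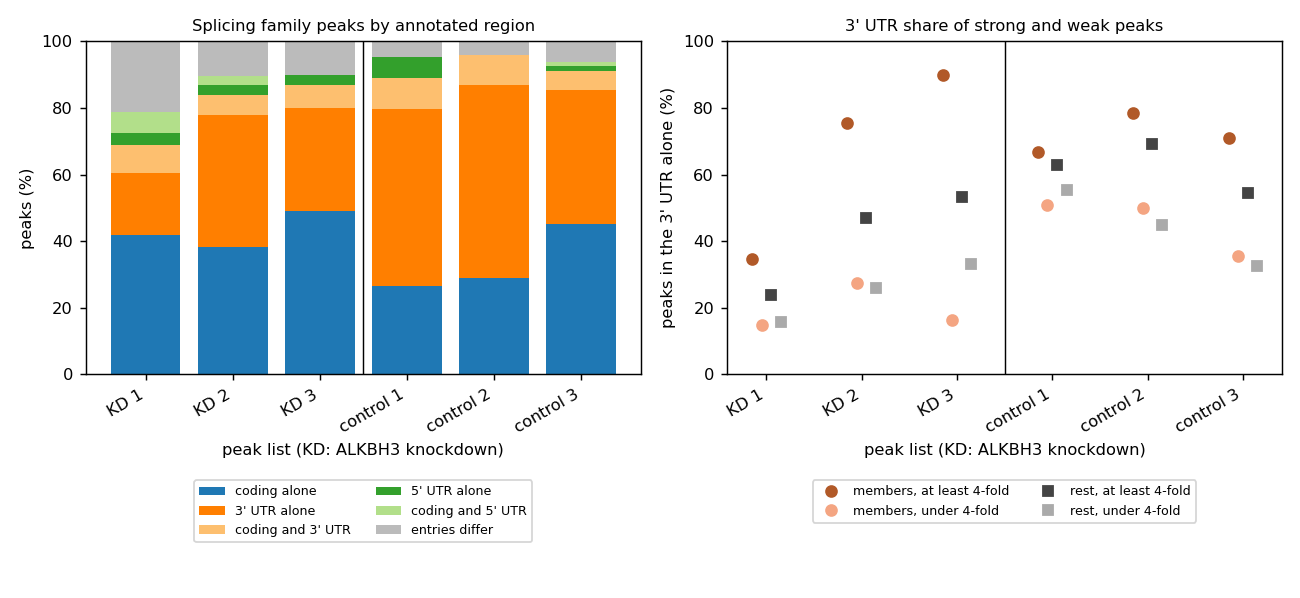
Left, percentage of splicing family peaks (vertical axis, stacked) by annotated region in the 3 knockdown and the 3 control lists; the 3′ UTR alone holds 18.7% to 39.5% in the knockdown and 40.0% to 58.0% in the control. Right, percentage of peaks in the 3′ UTR alone (vertical axis) among peaks of at least 4-fold and under 4-fold enrichment, for splicing family genes (members) and for the rest of the genes.

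Of the 63 genes, 24 had a peak in more knockdown lists, 10 in more control lists and 29 in as many of each, against 6236, 1262 and 2728 of all genes. A peak in at least 2 more knockdown than control lists was found for 7 of 63 genes (11.1%), against 20.1% of all genes: HNRNPAB, HNRNPLL, LSM12, LSM6, SNRPA, SRSF10 and SRSF7. The opposite was found for 2 of 63 genes (3.17%), against 1.76% of all genes: LSM3 and SNRPB2. Both counts hang on single lists, as do the shares of all genes. The 7 genes became 0, 1 and 1 without knockdown replicate 1, 2 or 3, against 3.94%, 5.33% and 8.49% of all genes. They became 8, 18 and 21 without control replicate 1, 2 or 3, against 26.8%, 26.7% and 39.3% of all genes. The 2 genes became 10, 5 and 3 without knockdown replicate 1, 2 or 3, against 7.49%, 4.21% and 3.20% of all genes. Without any control replicate they became 0, against 0.117% to 0.460% of all genes. No splicing family gene was marked throughout the knockdown and nowhere in the control (background 2.90%), or the reverse (background 0.0391%).

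No gene passed a test of the number of peaks per gene. A two-sided exact permutation test of log2(peaks + 1), 3 lists against 3, was run on all 10226 genes, and after Benjamini-Hochberg adjustment 0 of them lay below 0.05 (background 0%). Unadjusted, 0 lay below 0.05 too, since the smallest p that this design allows is 0.1. HNRNPR, an hnRNP gene chosen after its values were seen, was the only splicing family gene at that smallest exact p of 0.1 (adjusted p = 1). It had 7, 5 and 4 peaks in the knockdown lists, against 0, 3 and 3 in the control lists, without overlap. Of all genes, 4.81% had non-overlapping counts with the knockdown higher, and 0.108% with the control higher. Among the 63 genes these were 1 and 0.

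Peaks in the 3′ UTR alone were more numerous in the control on a few of these genes: 5 of the 58 splicing family genes with such a peak (8.62%) had more of them in every control list than in any knockdown list, against 0.651% of all 7369 genes with such a peak. They were HNRNPC, SRSF2, HNRNPA0, LSM3 and SNRPB2, of which HNRNPA0 was chosen after its values were seen. Leaving out each list in turn kept all 5, with 5 to 7 genes, against 1.16% to 3.00% of all genes with such a peak. Counting every peak that touches a 3′ UTR kept 4 of the 5 and lost LSM3. Under a bound of 4-fold, or in lists limited to equal length, there were 0, against 0.244% and 0.647% of all genes with such a peak. The call needs a 3′ UTR peak in all 3 control lists, and splicing family genes were listed more often there. In control replicate 2 this was 65.1%, against 28.5% of the other genes. The compared genes were not matched for this, and its part in the excess was not tested. None of the 58 genes showed the reverse (background 1.34%). For peaks in coding sequence alone, 1 of 51 genes had more in every knockdown list, HNRNPAB (background 4.11%), and 0 in every control list (background 0.102%).

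HNRNPC, which binds uridine-rich stretches of nascent RNA, had 2, 0 and 0 peaks in the 3′ UTR alone in the knockdown lists, against 5, 5 and 4 in the control lists. SRSF2, also known as SC35, had 0, 1 and 0 in the knockdown lists, against 2, 4 and 4 in the control lists. HNRNPA0, a relative of hnRNP A1, had 0 in each knockdown list, against 1, 2 and 1 in the control lists. In none of the 3 did the groups overlap. LSM3, a subunit of the LSm rings, had 0 in each knockdown list, against 1, 1 and 2 in the control lists. For LSM3, knockdown replicate 1 held a spliced peak across coding sequence and 3′ UTR, and SNRPB2, the U2B″ protein of the U2 snRNP, had a peak in coding sequence in that list.

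HNRNPC and SRSF2 also held single positions of the control alone. These come from peaks in the same 3′ UTRs that were counted above, so they are not a separate observation. Peaks were joined across lists where they had 1 exonic base or more in common on a strand, which gave 393 positions on the splicing families. Of these, 3 (0.763%) were marked in each of the 3 control lists and never in the knockdown, against 0.0692% of the 57839 positions on all genes. They lay in the 3′ UTRs of SRSF2 (hg19 chr17:74730272-74730446), HNRNPC (chr14:21679095-21679344) and HNRNPK (chr9:86583498-86583747), all on the minus strand. At the SRSF2 position the best log2 enrichment was 0.90, 1.30 and 1.34 in control replicates 1, 2 and 3. At the HNRNPC position it was 1.05, 0.93 and 0.88. At the HNRNPK position it was 1.16, 1.47 and 1.49. All 9 values are under 4-fold, so these are weak peaks. Positions on these genes were also more often marked in exactly 3 lists of either group (9.16%, against 3.82% on all genes). The compared positions were not matched for this, and its part in the excess was not tested.

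Knockdown peaks were nearby at some of these positions. On SRSF2, knockdown replicate 2 had a stronger peak (log2 3.21) that began 25 nt beyond the position, and knockdown replicate 3 had no peak on the gene. On HNRNPK, a gene for a protein that binds cytosine-rich RNA, the nearest peaks of knockdown replicates 1 and 2 lay 125 and 100 nt away. On HNRNPC the nearest peak of knockdown replicate 1 lay 225 nt away, and replicates 2 and 3 had no peak in the 3′ UTR alone. With fragments of about 300 nt, distances of this size are near the resolution of the assay.

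The reverse pattern occurred at 1 of the 393 positions (0.254%), against 0.398% of all positions. It lay in the 3′ UTR of HNRNPDL (chr4:83345792-83345966, minus strand), a gene chosen here after its values were seen, with log2 enrichments of 1.39, 2.11 and 1.68 in knockdown replicates 1, 2 and 3. The 3 positions of the control became 5 without knockdown replicate 1 or 3 or without any control replicate, and stayed at 3 without knockdown replicate 2. The 1 position of the knockdown became 6, 7 and 7 without knockdown replicate 1, 2 or 3. It became 2, 4 and 9 without control replicate 1, 2 or 3. With a list left out, the same counts were not taken over all positions, so these changes cannot be read as particular to these genes.

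**Figure D4:**
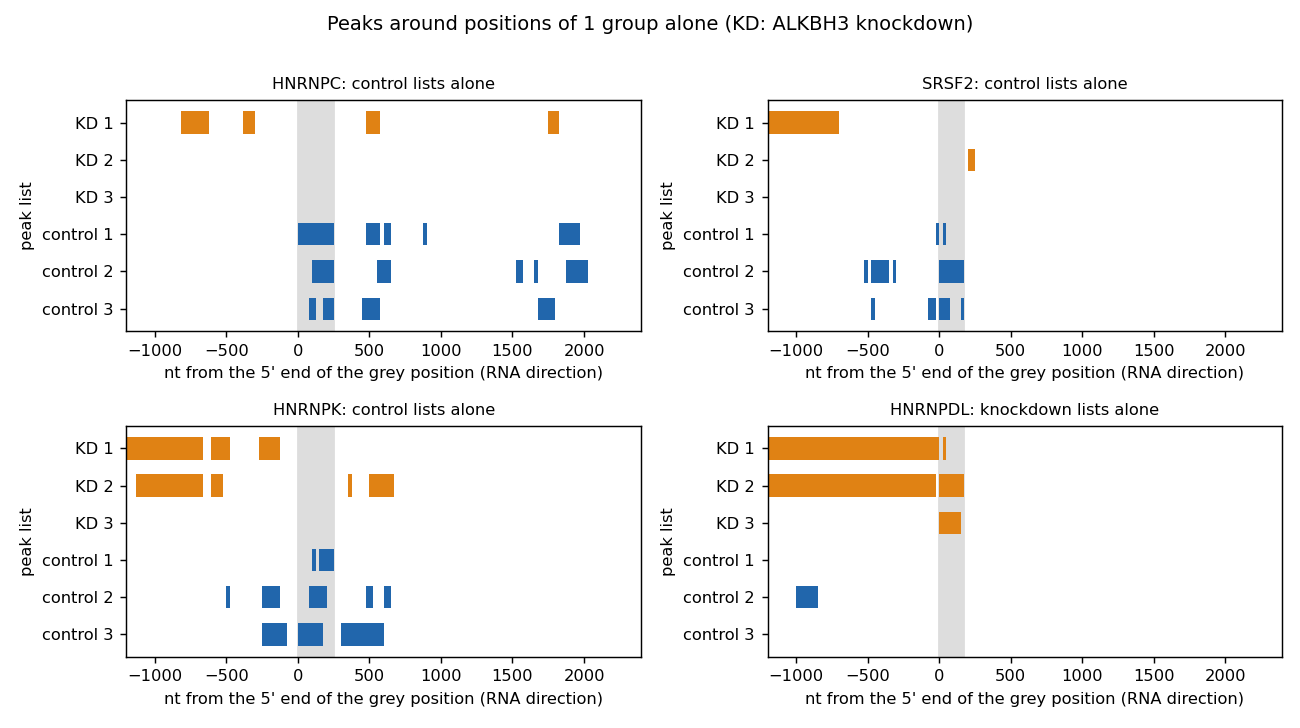
Peaks of HNRNPC, SRSF2, HNRNPK and HNRNPDL in the 3 knockdown lists (orange) and the 3 control lists (blue) around the joined position of 1 group alone (grey). The horizontal axis is the distance in nt from the 5′ end of that position in the direction of the RNA, and each bar is an exonic block of a peak: the grey stretch holds control peaks alone for the first 3 genes and knockdown peaks alone for HNRNPDL.

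Sm and LSm genes had the lowest mean number of lists per gene, 3.65, against 4.22 for SF3, 5 for SR and 4.90 for hnRNP genes. A peak lay on 22, 11 and 11 of the 23 genes in the knockdown lists, against 11, 12 and 17 in the control lists. SNRPB, which encodes the Sm proteins B and B′, was the only one with a peak in all 6 lists. Its best log2 enrichment was 2.00, 1.53 and 1.46 in the knockdown lists, against 1.34, 1.20 and 1.82 in the control lists, with overlap. The peaks were long, and 800 exonic bases within chr20:2442380-2443379 (minus strand, coding sequence and 3′ UTR) were covered in every list. SNRPD1 and SNRPG, further proteins of the Sm ring, differed in breadth. SNRPD1 had 2, 1 and 0 peaks in the knockdown lists, against 0, 2 and 1 in the control lists, and SNRPG had 1, 2 and 2, against 0, 1 and 1.

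SNRPF, also of the Sm ring, held the most enriched splicing family peak of all lists. That peak had a log2 enrichment of 6.43 in knockdown replicate 1, in the 3′ UTR (chr12:96260023-96260172, plus strand), and no other list had a peak there. A second SNRPF peak of 425 exonic nt, chr12:96258857-96259897, had the same boundaries in all 3 knockdown lists and in control replicate 3, with log2 values of 1.15 to 2.49. LSM5, a subunit of the rings on U6 snRNA and in mRNA decay, had best values of 4.35 and 3.20 in knockdown replicates 1 and 3, against 1.49 and 4.18 in control replicates 2 and 3. SNRPB2 had a 3′ UTR peak of 4.47 in control replicate 2 alone (chr20:16721877-16722051). SNRPF and LSM5 were chosen after their values were seen.

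The 3 Sm and LSm genes with a peak in at least 2 more knockdown than control lists were LSM12, LSM6 and SNRPA. LSM12, a protein with an LSm domain, had 3, 2 and 1 peaks in the knockdown lists, against 1, 0 and 0 in the control lists. LSM6, a subunit of the LSm rings, had 1, 1 and 0, against 0, 0 and 0. SNRPA, an RNA-binding protein of the U1 snRNP, had 3, 1 and 1 peaks in the knockdown lists, against 0, 0 and 2 in the control lists. In none of the 3 was the lowest knockdown list above the highest control list. The U6 ring subunit LSM2 had a peak in knockdown replicate 1 and control replicate 3, and LSM14A, which binds and represses mRNA in P-bodies, had 7, 0 and 2 peaks in the knockdown, against 0, 4 and 4 in the control. LSM10, of the U7 snRNP that processes histone mRNA, had peaks in knockdown replicate 1 alone.

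SF3 genes differed from the other subfamilies in where their peaks lay. Coding sequence alone held 73.1%, 66.7% and 83.3% of the SF3 peaks in the knockdown lists, against 61.5%, 88.9% and 73.1% in the control lists, with means of 74.4 ± 8.41% and 74.5 ± 13.7% (SD, n = 3 lists each). Over the 6 lists, the other subfamilies ranged from 5.88% to 24.5% (Sm and LSm), 11.1% to 34.1% (SR) and 17.9% to 56.5% (hnRNP), so SF3 was highest in every list. Genes outside the splicing families ranged from 25.2% to 55.8%. The SF3 shares rest on 9 to 52 SF3 peaks in a list. A peak lay on 9, 6 and 5 of the 9 genes in the knockdown lists, against 6, 4 and 8 in the control lists.

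SF3A1, a subunit of the SF3A complex, had the highest lowest rank over the 6 lists, percentile 52.0, among the 17 splicing family genes present in all of them. It had 8, 3 and 7 peaks in the knockdown lists, against 2, 3 and 8 in the control lists. Its best log2 enrichments were 2.23, 3.22 and 2.48 in the knockdown lists, against 2.40, 2.30 and 2.48 in the control lists, with its best peak above the median of every list. In all 6 lists a peak covered the same 150 exonic bases within chr22:30733679-30734844 (minus strand, coding sequence). A second position, chr22:30733058-30733169, had a peak in 5 lists.

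SF3A2, another SF3A subunit, had best values of 2.34, 2.73 and 2.84 in the knockdown lists, against 2.68, 3.44 and 1.98 in the control lists, all at a joined position at the end of the coding sequence (chr19:2247644-2248672, plus strand). SF3B4, which contacts pre-mRNA near the branch point, had 1.81, 1.80 and 1.69 in the knockdown lists, against 1.78, 2.12 and 1.65 in the control lists. Both sets overlapped between the groups. SF3B1, the scaffold of SF3B and the subunit most often mutated in myeloid disease, had 10, 6 and 1 peaks in the knockdown lists, against 0, 2 and 4 in the control lists. SF3B2 had 7, 2 and 3 in the knockdown lists, against 1, 0 and 6 in the control lists. SF3A3 was the exception of the subfamily, with 9 peaks in knockdown replicate 1 and none in any other list.

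SR genes were present in 10, 10 and 7 of 10 cases in the knockdown lists, against 6, 7 and 10 in the control lists. SRSF3, SRSF4, SRSF9 and SRSF11 had a peak in all 6 lists. SRSF9 had best log2 enrichments of 1.94, 2.63 and 2.29 in the knockdown, against 1.16, 1.49 and 1.55 in the control lists, without overlap. Except in knockdown replicate 1, these best peaks lay in the same part of the 3′ UTR (chr12:120899471-120899670, minus strand). SRSF3, the smallest SR protein, had 1.90, 1.98 and 4.74 in the knockdown lists, against 1.07, 1.51 and 1.31 in the control lists, also without overlap. These were 2 of the 17 splicing family genes present in every list, and 5.44% of the 772 such genes overall had a higher best value in every knockdown list. None of the 17 showed the reverse (background 2.72%). These values are the deposited log2 enrichments of the best peak, compared between lists that differ in length and overall enrichment. They are not ranks and not a tested change.

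SRSF10 and SRSF7 were the SR genes in at least 2 more knockdown than control lists. SRSF10, which can act as a splicing repressor, had 12, 8 and 1 peaks in the knockdown lists, against 0, 0 and 4 in the control lists. SRSF7, which also takes part in mRNA export, had 3, 4 and 2, against 0, 0 and 3. For both, control replicate 3 overlapped the knockdown lists. SRSF1, one of the first SR proteins described, had 5, 8 and 0 peaks in the knockdown lists, against 0, 3 and 5 in the control lists, and SRSF6 had 6, 3 and 0, against 1, 0 and 2.

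SRSF5 carried a strong 3′ UTR peak that recurred across the groups with the same boundaries. The peak (chr14:70238466-70238640, plus strand, 175 nt) had a log2 enrichment of 3.80 in knockdown replicate 3, against 3.91 and 3.90 in control replicates 2 and 3. It stood at percentile 92.3 in knockdown replicate 3, against 90.9 and 93.5 in those control lists, and the other 3 lists had no peak with these boundaries. SRSF11 had 3′ UTR peaks of 3.33 and 3.36 in knockdown replicates 1 and 3 that overlapped each other. Over all regions its best values were 3.33, 1.48 and 3.36 in the knockdown lists, against 1.54, 1.23 and 2.33 in the control lists, with overlap. The SR subfamily thus held strong 3′ UTR peaks in both groups.

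**Figure D5:**
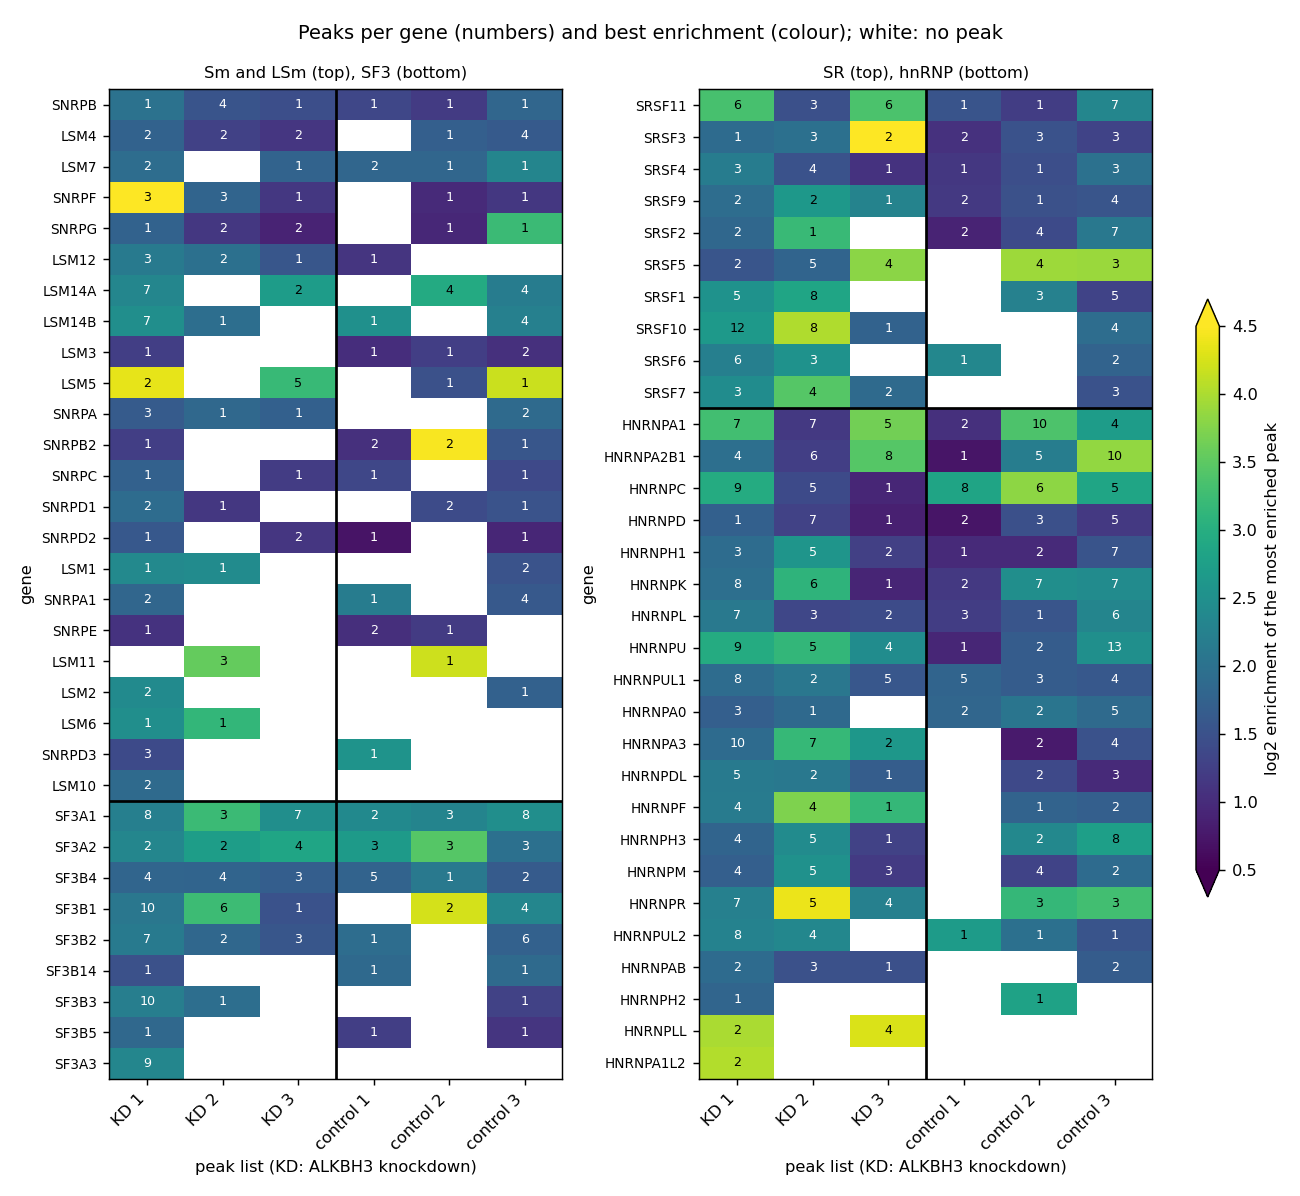
Each row is a splicing family gene and each column a peak list, with the 3 knockdown lists (KD) left of the 3 control lists. Numbers give the peaks of the gene, colour gives the log2 enrichment of its most enriched peak and white marks no peak: SNRPF in knockdown replicate 1 has the highest value, 6.43, and hnRNP genes fill most of their cells.

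The hnRNP genes gave the largest number of peaks, with 21, 18 and 17 of 21 genes present in the knockdown lists, against 11, 18 and 18 in the control lists. Control replicate 1 was the thinnest, and 17 of the 21 genes had a peak in 5 or 6 lists. HNRNPUL1, a relative of hnRNP U, had best log2 enrichments of 1.92, 2.09 and 1.58 in the knockdown, against 1.79, 1.67 and 1.61 in the control lists, and 100 bases of its coding sequence within chr19:41811579-41811728 (plus strand) were covered in every list. HNRNPU, a chromatin-bound scaffold protein, had 2.96, 3.15 and 2.44 in the knockdown lists, against 0.93, 1.67 and 2.49 in the control lists. HNRNPL, which binds CA repeats, had 2.12, 1.35 and 1.42 in the knockdown lists, against 1.23, 1.55 and 2.32 in the control lists. All 3 overlapped between the groups. Of all splicing family peaks, 12 are listed under more than 1 gene name and cannot be assigned to 1 gene.

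HNRNPA1, a repressor of exon use, had a 3′ UTR position with strong peaks in both groups (chr12:54680592-54680766, plus strand). There the log2 enrichment was 3.28 and 3.64 in knockdown replicates 1 and 3, with identical boundaries, against 3.38 and 2.71 in control replicates 2 and 3. HNRNPA2B1, its close relative and a proposed m6A reader, had a 3′ UTR peak of 3.44 in knockdown replicate 3 (chr7:26229547-26229721, minus strand), against an overlapping one of 3.85 in control replicate 3 (chr7:26229622-26229796). In control replicate 2 a longer HNRNPA2B1 peak that overlapped both had 2.19 (chr7:26229647-26230196). These 2 genes and SRSF5 thus had strong 3′ UTR peaks in knockdown and control lists. HNRNPA1L2 is a near-identical copy of HNRNPA1, so its 2 peaks in knockdown replicate 1 are uncertain.

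HNRNPC also had a peak that joined 2 exons of the 5′ UTR (chr14:21702928-21736818, minus strand, 100 exonic nt), with identical boundaries in all 3 knockdown lists and control replicate 1. Its log2 enrichment was 2.19, 1.40 and 0.93 in the knockdown lists, against 0.97 in control replicate 1. HNRNPK had 8, 6 and 1 peaks in the knockdown lists, against 2, 7 and 7 in the control lists, and HNRNPM had 4, 5 and 3, against 0, 4 and 2. HNRNPAB had 2, 3 and 1 in the knockdown lists, against 0, 0 and 2 in the control lists. HNRNPLL, known for silencing exons of the CD45 gene in lymphocytes, had 2, 0 and 4 peaks in the knockdown lists, against 0, 0 and 0 in the control, with best values of 3.99 and 4.28.

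Few positions were fixed across the whole study. Of the 393 joined positions, 241 (61.3%) had a peak in 1 list, against 80.8% of the positions on all genes, and 7 (1.78%) had a peak in all 6 lists, against 0.645%. The 7 positions lay on SF3A1, SF3A2, SF3B4, SNRPB, HNRNPA1, HNRNPD and HNRNPUL1, of which HNRNPD was chosen after its values were seen. Without control replicate 1 there were 17 such positions in the other 5 lists, and without any other list 7 to 9. With a list left out, these counts were not taken over all genes. A base covered in all 6 lists was found on 3 of the 17 splicing family genes present in every list (17.6%), namely SF3A1, SNRPB and HNRNPUL1, against 240 of the 772 such genes overall (31.1%). With the stricter demand of 50% reciprocal overlap with the peak of knockdown replicate 1, no position was left.

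Other genes of the splicing pathway were read from a list of 86 names, of which 85 had a peak. The counts were 83, 55 and 54 genes in the knockdown lists, against 32, 42 and 64 in the control lists. A peak in at least 2 more knockdown lists was found for 13 of the 85 (15.3%), near the 20.1% of all genes, and in at least 2 more control lists for 1, RBM22 (1.18%, against 1.76%). DHX38, the helicase of the second catalytic step, BUD31, CLK3, a kinase of SR proteins, and RBM17 were marked throughout the knockdown and nowhere in the control, which is 4 of the 85 beside 2.90% of all genes. The best peak of DHX38 reached log2 2.44, 2.65 and 2.18 in knockdown replicates 1, 2 and 3. SRPK2, another SR protein kinase, reached 3.02, 3.01 and 2.69 in the knockdown lists, against 2.27 in control replicate 1 alone. SNRNP70, the U1-70K protein, had 5, 6 and 1 peaks in the knockdown lists, against 0, 0 and 5 in the control lists. A peak in all 6 lists was found for 18 of the 85 genes, beside 7.55% of all genes, among them U2AF2, SRRM2, PTBP1, SFPQ and NONO, named here after their values were seen.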

How the data were processed

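Per the labels' protocols, fragmented mRNA was immunoprecipitated with an m1A antibody and stranded libraries were sequenced with matching inputs. HISAT2 2.1.0, Trimmomatic 0.32, FastQC 0.11.7 and build hg19 are named in the submitters' processing notes, and the peak caller is not given in the sources used here. For every immunoprecipitated sample the authors deposited 1 mRNA peak list, with a log2 fold change, a p-value and a false discovery rate (q-value) per peak. The sides of the log2 fold change are not named in the header, and it was read as enrichment over input because every deposited value is above 0 (lowest 0.13). These are the authors' values and were not rescaled between lists. Percentiles were taken within each list, while log2 values and fold bounds were compared between lists as deposited. Depth is unknown, so no depth-based precision can be given.

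Entries per transcript were collapsed to distinct peaks by position and strand, with Python 3.11.15, pandas 2.3.3, numpy 2.4.6, scipy 1.17.1 and matplotlib 3.10.9. Coordinates are hg19, counted from 1. Of the 63 names, 62 match a current RefSeq symbol and 1 an older one. The exact permutation test ran over all genes and was tested on simulated data. Shares have Wilson 95% intervals. The families, gene lists and tests were chosen with earlier results of these data known. Genes were named when recurrent, present in 1 list, among the 4 of a subfamily with the highest lowest percentile in all 6 lists, or textbook members; others are marked as chosen later. Replicate numbers were not treated as pairs in the main test, and whether they mark pairs is not known.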

Additional observations from a re-analysis of the deposited data

How the results depend on the processing

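A bound on the deposited false discovery rate changed nothing, since every deposited value lies at or below 1.04e-08. Counting transcript entries or using autosomes and X alone, the first annotated region (region shares alone) or no read-through names (genes with a peak alone) moved none of the results recomputed by more than the spread between lists. At an equal length of 4894 peaks per list, the most enriched ones, knockdown minus control became -15.0 for genes with a peak, -1.19 for log2 peaks, -2.02 percentage points for coding sequence and +9.42 for the 3′ UTR. The genes listed more often became 1 (knockdown) and 17 (control), against 10.4% and 9.43% of all genes. Genes in all lists became 0, against 0.831% of all genes, and positions in all lists 0. Positions of 1 group alone became 0 for each group. The 3′ UTR genes with more control peaks became 0, against 0.647% of all genes with such a peak. The gap to other genes became -8.28 percentile points and 1.97 percentage points of genes. With at least 4-fold enrichment the differences were -4.99 (coding sequence) and -5.26 (3′ UTR), and the gap in genes -6.40. Genes listed more often in the control became 1 (against 1.52% of all genes), and genes in all lists 1 (against 1.44%). Positions in all lists became 1, and positions of 1 group alone 0 for each group. The 3′ UTR genes became 0, against 0.244% of all genes with such a peak. Demanding all lists against none left 0 and 0 genes, and reciprocal overlap 0 positions. With a 3-fold bound the SR difference was 28.6, against 16.2 percentage points.

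Leaving out 1 list at a time gave -0.17 to 11.5 for genes with a peak, 0.21 to 1.00 for log2 peaks, -0.61 to -0.22 for the share of list peaks, 5.90 to 15.3 for coding sequence, -25.8 to -15.1 for the 3′ UTR, 0 to 21 and 0 to 10 for genes listed more often in knockdown and control, 7 to 17 positions and 17 to 28 genes in all lists, 2 to 9 and 3 to 5 positions of knockdown and control alone, 5 to 7 genes with more 3′ UTR peaks in control, 15.2 to 18 for the SR share, 29.6 to 41.2 for strong minus weak peaks, -31.2 to -28.4 percentile points and 20.2 to 24.9 percentage points of genes. The cause of these changes was not tested. With a list left out, 7.67% to 12.1% of all genes had a peak in all remaining lists. Position counts, here and above, were recomputed on the splicing families alone, so no share of all positions stands beside them. With a replicate block, the exact test again called 0 genes (smallest p 0.25). Same-numbered lists deviated with correlations of -0.0402, 0.0817 and -0.124, against -0.146 to 0.152 for lists of different number. With 3 lists in each group, these values cannot show whether samples were handled as pairs. The alternatives for genes and positions in all lists or of 1 group alone, gaps to other genes, SR share and strong peaks, and 3′ UTR genes were chosen after seeing the data. Fragments of about 300 nt limit the position of a modified base.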

Other observations

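Exact peak boundaries recurred on few splicing family genes. Of 849 intervals on these genes, 13 (1.53%) had identical boundaries in more than 1 list, against 1.76% of the 79669 intervals on all genes, and 3 (0.353%) had them in at least 3 lists, against 0.167%. These 3 are the peaks of HNRNPC, SNRPF and SRSF5 described above. HNRNPK, HNRNPL, HNRNPR, LSM14A, SF3A1, SF3A2 and HNRNPA2B1 each had 1 interval shared by 1 knockdown and 1 control list, as HNRNPC had besides its 5′ UTR peak. The 2 identical 3′ UTR intervals of SRSF9 lay in control replicates 1 and 2.

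Peaks of the splicing families crossed an exon junction more often than other peaks in 6 of 6 lists, by 0.63 to 12.5 percentage points. They did so in 46.6%, 21.6% and 18% of the knockdown peaks, against 12.5%, 13% and 24.2% of the control peaks. LSM8, the subunit that makes the LSm ring specific to U6, is listed under its older name NAA38 on chromosome 7 and stood outside the rule. It had 4, 2 and 0 peaks in the knockdown lists, against 0, 1 and 5 in the control lists, with best log2 enrichments of 2.12 and 1.59 in knockdown replicates 1 and 2, against 2.70 and 3.00 in control replicates 2 and 3.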
